A study of Mus musculus with 24 samples.

Results

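The 10 genes Gdpd3, Pttg1, Nfia, Adat2, Cuedc1, Paip1, Klk1b16, Pgap2, Alpk3 and Tial1 were chosen by their intensities, which differed widely among wild type arrays or between wild type and Nfkb1-/- arrays. They are 10 of the 12393 genes on the array that are listed with a probe set of 1 gene, and they have 22 of the 22626 probe sets. Those 2 sets of differences chose the genes, so they are described here with single values and no test. The tests below are of the change with unloading in the 2 knockouts. The Bcl3-/- arrays had no part in the choice, whereas the Nfkb1-/- arrays had a part in it through another contrast, so a change within Nfkb1-/- muscle is not independent evidence.

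Gastrocnemius and plantaris muscle of male mice aged 6 weeks was measured on 24 arrays (Affymetrix Mouse Genome 430A 2.0), 4 mice in each of 6 groups. Nfkb1-/- mice (B6;129P2-Nfkb1tm1Bal/J) lack p50 and Bcl3-/- mice (FVB;129P2-Bcl3tm1Ver/J) lack Bcl-3, and each was set beside wild type mice (B6129PF2/J). In each genotype, 4 mice were hind limb unloaded (HU) for 6 days, which removes the load from the hind limbs, and 4 other mice stayed weight bearing (WB). Each array is 1 mouse. The wild type strain is an F2 hybrid of C57BL/6 and 129 mice, so single wild type mice can carry different alleles of a gene, while the knockouts are on other mixtures that include 129P2. Alleles at these 10 genes were not measured, and whether a difference below follows an allele was not tested. The HU and WB mice of a genotype were different animals, so for these genes a change with unloading in wild type muscle and a difference in which mice fell in each group cannot be told apart.

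The values are intensities on a linear scale, and the 2 sets of arrays are on different scales. The 16 wild type and Nfkb1-/- arrays had medians of 11.6 to 11.9 and lower quartiles of 3.94 to 4.49, and the 8 Bcl3-/- arrays had medians of 81.1 to 86.8. Strain, genotype and scale of the Bcl3-/- arrays cannot be told apart, so their levels are not set against the others, and where a rank helps, the percentile of a probe set among all probe sets of its own array is given. All 22 probe sets were above 20 on at least 4 of the 24 arrays and were tested, but 7 of them passed through Bcl3-/- arrays, and 15 were above 20 on at least 4 of the 16 others. The platform annotation lists 1 probe set for Bcl3 and 0 for Nfkb1, and neither deletion could be checked here. All 7 skeletal muscle markers (Acta1, Ckm, Myh4, Tnnt3, Ttn, Mylpf and Atp2a1) were above 20 on every array. In whole muscle, fewer cells of a type and less RNA per cell cannot be told apart.

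The 10 genes have no pathway in common. Gdpd3 is a lysophospholipase D of the glycerophosphodiester phosphodiesterase family, and Pgap2 remodels the lipid of glycosylphosphatidylinositol (GPI) anchors, which hold proteins on the cell surface. Paip1 binds poly(A)-binding protein and promotes translation, Tial1 (TIAR) is an RNA-binding protein of stress granules, and Adat2 is the catalytic subunit of the tRNA adenosine deaminase. Pttg1 is securin, which holds separase inactive until anaphase, and Nfia is a nuclear factor I transcription factor. Alpk3 is an alpha kinase of heart and skeletal muscle, Cuedc1 has a CUE domain, a fold that binds ubiquitin, and Klk1b16 is a glandular kallikrein. A probe set reads a short stretch of a transcript, so a gene with several probe sets has been read at more than 1 place, and for a gene with several probe sets the one with the widest range over the 16 wild type and Nfkb1-/- arrays leads the account.

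The promoters of the 3 genes with the widest range over those arrays (Gdpd3, Pttg1 and Alpk3) are shown because p50 and Bcl-3 act at kB motifs, and the windows let a reader see what lies at these starts. Each window runs from 250 bases before to 50 bases after the start, 5′ to 3′ in the direction of the gene, and is RefSeq sequence of GRCm38.p6, which comes from C57BL/6J mice and holds no 129 or FVB allele. Capitals mark the nuclear factor I motif TTGGC, in either orientation, and TATAAA. The Gdpd3 window is chr7:126766164-126766463 on the + strand, the Pttg1 window is chr11:43425932-43426231 on the - strand and the Alpk3 window is chr7:81057350-81057649 on the + strand.
Gdpd3: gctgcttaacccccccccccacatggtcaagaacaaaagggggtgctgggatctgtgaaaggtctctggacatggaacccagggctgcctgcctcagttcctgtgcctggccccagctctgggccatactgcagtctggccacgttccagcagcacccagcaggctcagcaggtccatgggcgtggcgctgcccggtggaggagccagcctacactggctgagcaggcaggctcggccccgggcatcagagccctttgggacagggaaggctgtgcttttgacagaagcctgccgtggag
Pttg1: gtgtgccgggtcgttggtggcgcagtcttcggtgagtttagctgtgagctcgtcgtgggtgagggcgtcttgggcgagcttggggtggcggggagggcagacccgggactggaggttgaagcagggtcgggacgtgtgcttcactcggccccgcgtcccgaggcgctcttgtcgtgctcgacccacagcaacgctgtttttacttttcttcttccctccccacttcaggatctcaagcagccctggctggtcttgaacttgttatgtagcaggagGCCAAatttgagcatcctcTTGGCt
Alpk3: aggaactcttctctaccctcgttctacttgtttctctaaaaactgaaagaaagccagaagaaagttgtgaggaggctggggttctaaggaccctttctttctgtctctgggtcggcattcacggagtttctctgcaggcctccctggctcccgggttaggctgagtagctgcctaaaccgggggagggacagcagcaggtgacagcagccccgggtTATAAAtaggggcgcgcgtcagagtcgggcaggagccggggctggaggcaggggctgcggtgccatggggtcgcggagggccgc
The Gdpd3 window held none of the motifs searched, the Pttg1 window held 2 nuclear factor I motifs and the Alpk3 window held 1 TATAAA. All 10 genes matched the promoter table, with 17 windows, and the classical decameric kB motif was in 0 of the 17, searched on both strands. Some windows of a gene overlap. The study searched much further from each gene it chose for ChIP, so sites outside these windows are not covered here. Of all 32851 windows of 300 bases, 8.46% held the kB motif, 46.7% the motif TTGGC and 13.6% TATAAA. The 3 motifs were searched separately and any overlap of one with another was allowed.

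Gdpd3 had the widest range of the 10 genes. Its probe set (1449526_a_at) read 5.82, 6.74, 6.11 and 5.39 on the Nfkb1-/- HU arrays and 6.03, 5.66, 6.10 and 5.76 on the Nfkb1-/- WB arrays. In wild type muscle it read 262, 204, 386 and 478 on the HU arrays, against 5.75, 6.19, 5.45 and 92.4 on the WB arrays. Gdpd3 was thus near 6 on all 8 Nfkb1-/- arrays and on 3 of the 4 wild type WB arrays, and high on the other wild type WB array and on all 4 wild type HU arrays. The mean log2 intensity was 8.30 ± 0.55 in wild type HU and 3.53 ± 2.00 in wild type WB muscle (SD, n = 4 each), a difference of 4.77 between HU and WB, and the SD of 2.00 rests on the 1 high WB array. Over the 16 arrays the highest value was 88.6 times the lowest, and the widest gap between neighbouring values of the 8 wild type arrays was 3.90 log2 units.

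On the Bcl3-/- arrays Gdpd3 was high throughout. It read 2244, 2262, 2061 and 2154 in HU muscle and 1670, 1473, 1328 and 1352 in WB muscle, which places it at the 95.4th to 95.9th and the 93.0th to 94.5th percentile of those arrays. The Nfkb1-/- arrays had it at the 33.0th to 39.9th percentile and the wild type HU arrays at the 92.3rd to 96.4th. The 4 Bcl3-/- HU arrays did not overlap the 4 WB arrays, but the log2 change of 0.59 (SE 0.53) did not pass the test (adjusted p = 0.51, limma), with an SE that comes from the spread within all 6 groups, the wild type WB group included, and it passed when the 8 Bcl3-/- arrays were fitted alone or without wild type WB replicate 4, the 1 high WB array. In Nfkb1-/- muscle the change was 0.03 (SE 0.53, adjusted p = 0.99).

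Pgap2, the GPI remodelling gene, was read by 3 probe sets, all with a lower mean in wild type HU than in wild type WB muscle. The leading one (1424616_s_at) read 7.19, 8.05, 8.01 and 9.78 on the Nfkb1-/- HU arrays and 11.0, 8.90, 10.2 and 12.5 on the Nfkb1-/- WB arrays. In wild type muscle it read 13.2, 10.8, 12.2 and 13.5 on the HU arrays, against 27.5, 26.7, 24.3 and 12.9 on the WB arrays. Of the 4 wild type WB arrays, 3 stood above every other wild type and Nfkb1-/- array, and WB replicate 4 lay among the wild type HU arrays. By its suffix, 1424616_s_at holds probes that can match other transcripts. The other 2 probe sets were brighter and separated the wild type groups fully. Probe set 1424615_at read 27.0, 23.2, 28.7 and 28.9 on the wild type HU arrays and 70.5, 67, 63.9 and 56.9 on the wild type WB arrays, and 1424614_at read 21.8 to 24.3 on the HU and 33.8 to 55.1 on the WB arrays. The wild type difference between HU and WB was -0.82, -1.002 and -1.26 log2 units for 1424616_s_at, 1424614_at and 1424615_at.

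The probe set 1424615_at in Nfkb1-/- muscle read 20.01, 21.4, 20.9 and 27.4 on the HU arrays and 28.8, 31.7, 28.8 and 28.6 on the WB arrays, with no overlap, and Pgap2 fell by 0.40 log2 units (SE 0.12, adjusted p = 0.031). The fall was lost with the methods' t-test under either adjustment, with 16 added to the intensity (-0.25) and when any of 7 of the 8 Nfkb1-/- arrays was left out. The other 2 Pgap2 probe sets changed by -0.16 (SE 0.12, adjusted p = 0.46) and -0.37 (SE 0.18, adjusted p = 0.21). In Bcl3-/- muscle the 3 probe sets changed by 0.07 to 0.12 log2 units and none passed the test.

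Paip1, the translation factor, was the 1 gene of the 10 whose leading probe set separated the genotypes without regard to unloading. Its probe set 1425521_at read 3.05, 3.46, 3.26 and 2.93 on the Nfkb1-/- HU arrays and 2.45, 2.80, 2.87 and 3.44 on the Nfkb1-/- WB arrays. Wild type muscle read 26.01, 20.6, 26.7 and 30.8 on the HU arrays and 27.7, 16.95, 14.6 and 17.9 on the WB arrays. All 8 Nfkb1-/- arrays lay below all 8 wild type arrays, a pattern that 0.254% of the 19294 probe sets tested share in that direction. The mean log2 intensity was 1.52 ± 0.20 in Nfkb1-/- WB and 4.23 ± 0.40 in wild type WB muscle (SD, n = 4 each), a difference of -2.71, and the difference was -3.02 in HU muscle. Within the wild type arrays the widest gap was 0.33 log2 units, so Paip1 shows no step among single wild type mice. The other Paip1 probe set, 1451740_at, did not show this pattern. It read 7.85 to 10.9 on the 8 Nfkb1-/- arrays and 7.52 to 12.3 on the 8 wild type arrays.

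Both Paip1 probe sets rose with unloading in Bcl3-/- muscle. Probe set 1425521_at read 84.6, 60.4, 68.4 and 69.4 on the Bcl3-/- HU arrays and 45.3, 59.1, 49.7 and 32.2 on the Bcl3-/- WB arrays, a log2 change of 0.63 (SE 0.18, adjusted p = 0.025). Probe set 1451740_at read 104, 76.2, 82.6 and 97.5 on the HU arrays and 65.3, 56.3, 64.6 and 70.6 on the WB arrays, a log2 change of 0.48 (SE 0.13, adjusted p = 0.024). Neither probe set overlapped between the 2 conditions. On these arrays 1425521_at lay at the 42.5th to 49.8th percentile in HU and the 27.0th to 42.0th in WB muscle. Probe set 1451740_at lay at the 47.5th to 54.1st in HU and the 40.9th to 46.7th in WB muscle, and passed the intensity filter only through Bcl3-/- arrays. Both calls were lost with the methods' t-test under either adjustment. The first was also lost when the 8 Bcl3-/- arrays were fitted alone and without Bcl3-/- HU replicate 1, HU replicate 3 or WB replicate 4, and the second without Bcl3-/- HU replicate 1, HU replicate 4 or WB replicate 2. In Nfkb1-/- muscle the changes were 0.14 (SE 0.18, adjusted p = 0.71) and 0.19 (SE 0.13, adjusted p = 0.45), and the difference between the knockouts did not pass the test for either (-0.48, SE 0.25, adjusted p = 0.30, and -0.30, SE 0.19, adjusted p = 0.42).

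Tial1, the stress granule protein, had 1 probe set of 4 that set wild type HU muscle apart. Probe set 1426352_s_at read 34.5, 36.1, 34.4 and 29.6 on the Nfkb1-/- HU arrays and 24.6, 25.1, 25.3 and 25.7 on the Nfkb1-/- WB arrays. On wild type arrays it read 12.5, 11.6, 11.0 and 11.0 in HU muscle, against 26.7, 28.3, 24.7 and 19.98 in WB muscle. The 4 wild type HU arrays were below the other 12 arrays, and the wild type difference between HU and WB was -1.10 log2 units. The other 3 probe sets differed by 0.55, 0.09 and 0.28 log2 units in the opposite direction, and none had its wild type HU arrays below the rest.

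Tial1 rose with unloading at 3 of its 4 probe sets in Nfkb1-/- muscle. The log2 changes were 0.41 (SE 0.10, adjusted p = 0.0084) for 1426352_s_at, 0.41 (SE 0.09, adjusted p = 0.0045) for 1455675_a_at and 0.47 (SE 0.11, adjusted p = 0.005) for 1455676_x_at. All 3 calls were lost with the methods' t-test under either adjustment, and with 16 added the change of 1426352_s_at was 0.27. Probe set 1421148_a_at changed by a similar 0.42 but with a larger error (SE 0.18, adjusted p = 0.13). For example, 1455675_a_at read 71.7, 88.7, 93.0 and 80.3 on the HU arrays and 61.4, 68.9, 65.1 and 56.0 on the WB arrays, and the 2 conditions did not overlap. In Bcl3-/- muscle the 4 changes were -0.08 to 0.21 log2 units and none passed the test. The difference between the knockouts was 0.45 (SE 0.13, adjusted p = 0.068) for 1455675_a_at and did not pass for any Tial1 probe set, although that of 1455675_a_at passed under 4 other settings and without Nfkb1-/- HU replicate 1. By their suffixes, 1455676_x_at and 1426352_s_at hold probes that can match other transcripts. The 4 probe sets were read on the same mice, so they are not replicates of each other.

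Adat2, the tRNA deaminase subunit, was low on the 16 arrays. Its probe set (1419130_at) read 8.26, 6.52, 6.16 and 9.39 on the Nfkb1-/- HU arrays and 9.78, 11.0, 9.44 and 10.7 on the Nfkb1-/- WB arrays. Wild type muscle read 7.46, 10.5, 7.91 and 7.45 in HU, against 23.03, 38.0, 14.5 and 22.3 in WB. The 4 wild type WB arrays were above the other 12 arrays, with a wild type difference of -1.48 log2 units between HU and WB, and 3 of the 16 values were above 20. With unloading Adat2 changed by -0.45 log2 units in Nfkb1-/- muscle (SE 0.19, adjusted p = 0.12) and by 0.25 in Bcl3-/- muscle (SE 0.19, adjusted p = 0.41). Neither knockout overlapped between conditions, with 263, 258, 265 and 274 on the Bcl3-/- HU arrays and 236, 197, 248 and 210 on the Bcl3-/- WB arrays, and the difference of -0.71 between the knockouts did not pass the test (SE 0.26, adjusted p = 0.15) unless only the groups compared were fitted. The change in Nfkb1-/- muscle passed with that fit, with array weights and without wild type WB replicate 2.

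Pttg1, securin, was high on 7 of the 8 wild type arrays. Probe set 1424105_a_at read 17.5, 36.8, 17.2 and 14.3 on the Nfkb1-/- HU arrays and 16.1, 15.7, 17.8 and 10.7 on the Nfkb1-/- WB arrays. In wild type muscle it read 252, 292, 371 and 373 on the HU arrays, against 153, 17.6, 141 and 108 on the WB arrays. Wild type WB replicate 2 was at the level of the Nfkb1-/- arrays, and the other 7 wild type arrays were all at 108 or above. A second probe set, 1438390_s_at, singled out the same mouse, with 914, 1205, 1467 and 1493 on the wild type HU arrays, against 686, 95.3, 758 and 850 on the wild type WB arrays. By its suffix, 1438390_s_at holds probes that can match other transcripts. The third, 1419620_at, stayed between 3.69 and 6.29 on all 16 arrays and showed no such step.

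The wild type difference of Pttg1 between HU and WB was 1.99 log2 units for 1424105_a_at and 1.46 for 1438390_s_at, with the 1 low WB mouse included. Nfkb1-/- WB muscle differed from wild type WB muscle by -2.44 and -2.32 log2 units, and HU muscle by -3.99 for 1424105_a_at. With unloading, 1424105_a_at changed by 0.43 in Nfkb1-/- muscle (SE 0.42, adjusted p = 0.61) and by 0.02 in Bcl3-/- muscle (SE 0.42, adjusted p = 0.99). The change of 0.65 of 1438390_s_at in Nfkb1-/- muscle did not pass the test but passed without wild type WB replicate 2, the low mouse. The 8 Bcl3-/- arrays lay close together, from 79.4 to 105, at the 49.5th to 54.6th percentile of their arrays, against the 93.4th to 95.5th on the wild type HU arrays.

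Nfia, the nuclear factor I gene, read higher on the wild type WB arrays than on any other of the 16. Probe set 1421163_a_at read 12.9, 11.0, 10.1 and 10.7 on the Nfkb1-/- HU arrays and 13.4, 11.6, 11.47 and 13.6 on the Nfkb1-/- WB arrays. On wild type arrays it read 9.05, 11.0, 11.3 and 10.5 in HU muscle, against 54.8, 23.4, 30.3 and 27.1 in WB muscle. The wild type difference between HU and WB was -1.62 log2 units, and every wild type HU array was within the range of the Nfkb1-/- arrays or just below it. The other 2 probe sets were faint, from 2.85 to 8.68 on the 16 arrays. One of them, 1427733_a_at, rose with unloading in Bcl3-/- muscle, with 25.8, 22.9, 24.3 and 22.1 on the HU arrays and 20.4, 12.9, 21.1 and 18.7 on the WB arrays (log2 change 0.40, SE 0.13, adjusted p = 0.042). It is faint there too, at the 18.5th to 21.9th percentile of the HU and the 2.38th to 16.9th of the WB arrays. That call was lost when the 8 Bcl3-/- arrays were fitted alone, with array weights, with quantile normalization repeated, with centring on array medians, with the methods' t-test under either adjustment, and without 6 of the 8 Bcl3-/- arrays, each left out in turn. The change was 0.24 without WB replicate 2 and 0.22 with 16 added. The leading probe set changed by 0.20 in Bcl3-/- muscle (SE 0.19, adjusted p = 0.53) and by -0.17 in Nfkb1-/- muscle (SE 0.19, adjusted p = 0.67).

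Alpk3, the muscle alpha kinase, spread most within the wild type WB group. Its probe set (1449573_at) read 44.6, 45.9, 31.4 and 28.6 on the Nfkb1-/- HU arrays and 40.1, 40.8, 44.6 and 41.8 on the Nfkb1-/- WB arrays. Wild type muscle read 42.2, 56.5, 47.5 and 51.4 in HU, against 177, 461, 158 and 50.5 in WB. In wild type WB muscle 3 mice were high, 1 of them far above the other 2, and WB replicate 4 was at the level of the HU mice. The highest wild type WB value was 9.14 times the lowest, and the wild type difference of -1.70 log2 units between HU and WB rests on those 3 mice. With unloading Alpk3 changed by -0.18 log2 units in Nfkb1-/- muscle (SE 0.35, adjusted p = 0.83) and by -0.16 in Bcl3-/- muscle (SE 0.35, adjusted p = 0.82). On the Bcl3-/- arrays it read 1962, 2045, 1911 and 1913 in HU and 2676, 2089, 2078 and 1960 in WB muscle, at the 95.0th to 96.6th percentile.

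Cuedc1, the CUE domain gene, was the 1 gene of the 10 that split the wild type HU mice. Probe set 1451447_at read 18.8, 16.4, 13.9 and 14.9 on the Nfkb1-/- HU arrays and 19.1, 21.6, 15.5 and 18.6 on the Nfkb1-/- WB arrays. The wild type HU arrays read 11.6, 16.5, 75.0 and 64.1, and the wild type WB arrays 99.4, 86.9, 79.0 and 76.9. Of the wild type HU mice, 2 were at the level of the Nfkb1-/- mice and 2 were just below the wild type WB mice, with a gap of 1.96 log2 units between them. The wild type difference between HU and WB was -1.46 log2 units. Another probe set of the gene, 1435358_at, read 62.8 to 82.3 on the Nfkb1-/- and 49.9 to 68.3 on the wild type arrays and showed no such split, and 1425920_at was at 6.31 to 9.77 on the 16 arrays. On the Bcl3-/- arrays 1451447_at read 702 to 787 in all 8 mice, and its change with unloading was -0.03 there (SE 0.36, adjusted p = 0.96) and -0.22 in Nfkb1-/- muscle (SE 0.36, adjusted p = 0.78). The other 2 probe sets spread more on the Bcl3-/- arrays, and both were highest in WB replicate 2. In Bcl3-/- WB muscle 1435358_at read 998, 1582, 713 and 734, and 1425920_at read 119, 194, 72.3 and 59.4. In Bcl3-/- HU muscle they read 652 to 791 and 73.0 to 84.2.

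Klk1b16, the kallikrein, stood in opposite order in the 2 genotypes. Its probe set (1420490_at) read 13.8, 5.83, 8.36 and 9.70 on the Nfkb1-/- HU arrays and 25.1, 42.3, 38.9 and 36.7 on the Nfkb1-/- WB arrays. Wild type muscle read 17.7, 33.8, 21.4 and 24.2 in HU, against 14.1, 2.91, 12.2 and 16.0 in WB. The HU arrays were all below the WB arrays in Nfkb1-/- muscle and all above them in wild type muscle. Klk1b16 fell by 1.96 log2 units with unloading in Nfkb1-/- muscle (SE 0.39, adjusted p = 0.0019), the largest change of the 22 probe sets in either knockout, and the wild type difference was 1.32. All 4 Nfkb1-/- HU values lie below 20, and the change was -0.81 log2 units with the filter of the methods, which raises values to a floor of 20, and -1.02 with 16 added. It passed the test in both, and was lost with the methods' t-test after Benjamini-Hochberg adjustment. In Bcl3-/- muscle it read 402, 430, 415 and 181 in HU and 212, 337, 370 and 416 in WB, a change of 0.06 (SE 0.39, adjusted p = 0.94). The difference of -2.02 between the knockouts did not pass the test (SE 0.55, adjusted p = 0.059), but passed with array weights, with a filter within each set of arrays and with only the groups compared, and also without Bcl3-/- HU replicate 4, Bcl3-/- WB replicate 3, Nfkb1-/- HU replicate 1, wild type WB replicate 2 or wild type WB replicate 4. Glandular kallikreins are near-identical in sequence, so which member of the family this probe set reads is uncertain. Of the 6 other kallikreins measured, Klk1b11 fell in Nfkb1-/- muscle by 0.29 log2 units (SE 0.08, adjusted p = 0.025).

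**Figure D1:**
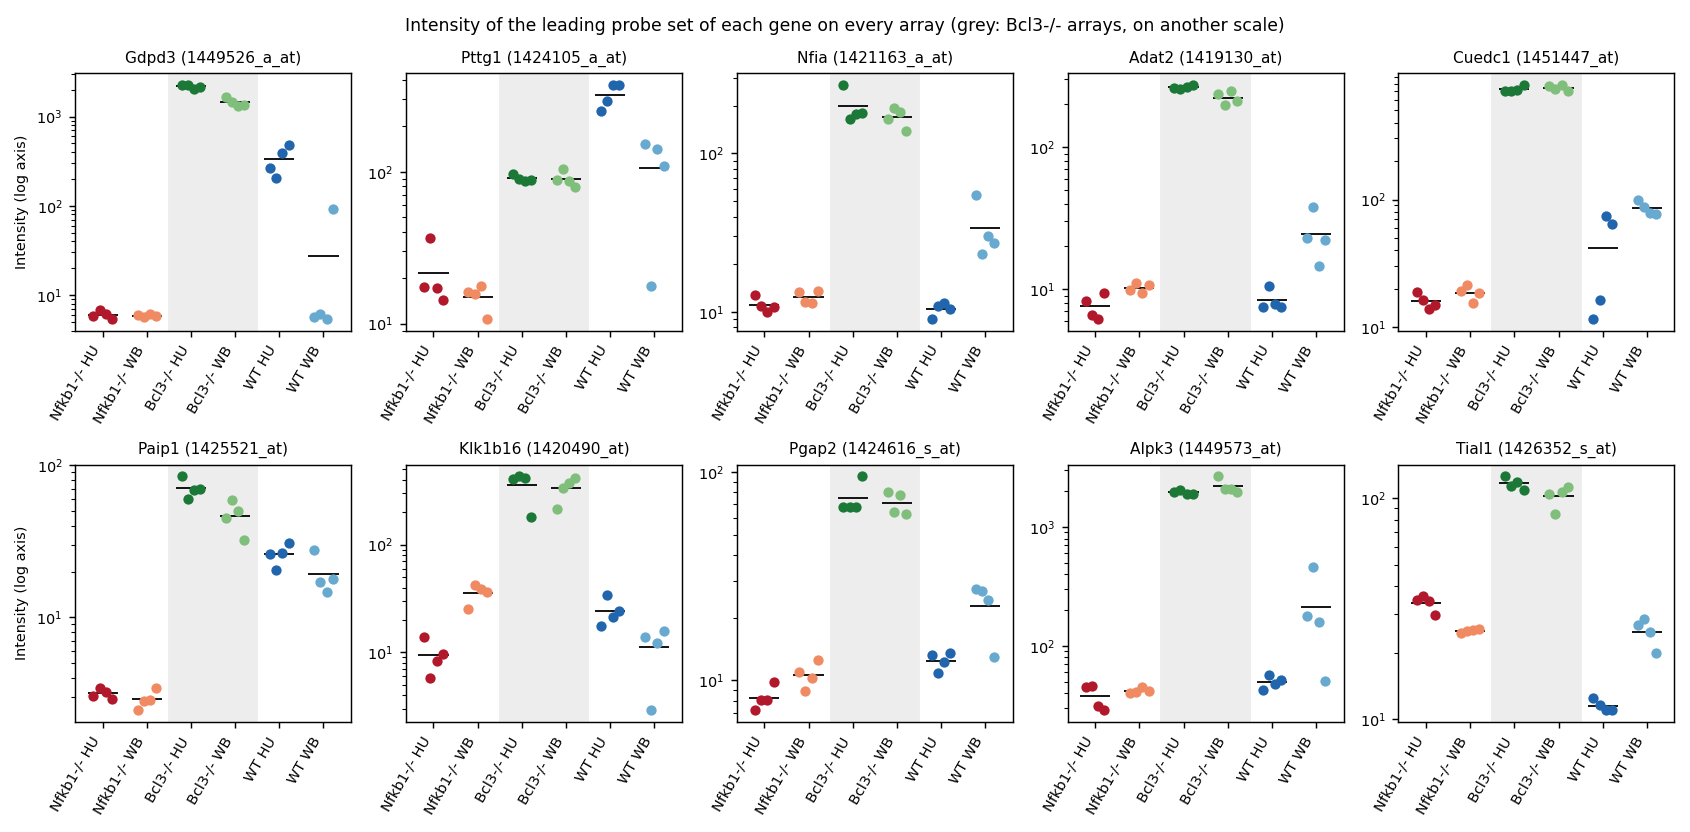
Intensity (log axis) of the leading probe set of each of the 10 genes on all 24 arrays, by group, with 1 point a mouse and a black line at the mean of the 4; Bcl3-/- arrays (grey) are on another scale. Gdpd3 is near 6 on all Nfkb1-/- arrays and on 3 of the 4 wild type (WT) WB arrays, Pttg1 is at 17.6 in 1 wild type WB mouse, and Cuedc1 splits the wild type HU mice.

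The low wild type mouse was not the same from gene to gene. Wild type WB replicate 4 was the high mouse for Gdpd3 and the low one for Pgap2 and Alpk3, WB replicate 2 was the low mouse for Pttg1 and Klk1b16 and the high one for Alpk3 and Adat2, and WB replicate 1 was the highest for Nfia. The plot of all 22 probe sets relative to their means shows each of these mice in 1 column. Within single genes, probe sets agreed in the mouse they set apart for Pttg1 (2 of 3), whereas 1 probe set of 3 split the wild type HU mice for Cuedc1. For Paip1 and Tial1 it was whole groups that 1 probe set of 2 and 1 of 4 set apart, not single mice.

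**Figure D2:**
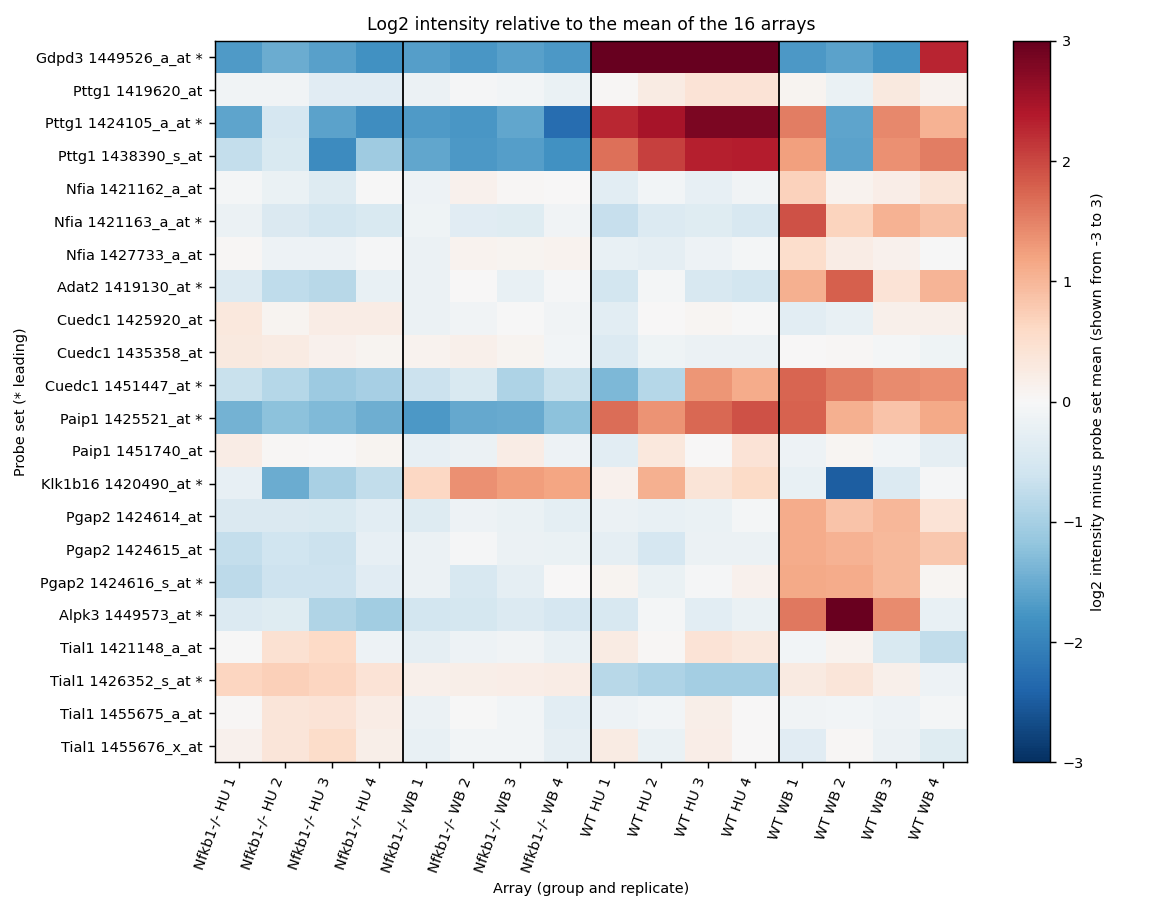
Log2 intensity of the 22 probe sets (rows, leading ones starred) on each of the 16 wild type and Nfkb1-/- arrays (columns), minus the mean of the probe set over the 16, in colours from -3 (blue) to 3 (red). The leading probe sets of Gdpd3, Pttg1, Paip1 and Cuedc1 are blue across the Nfkb1-/- arrays, unlike other probe sets of Paip1 and Cuedc1, while the leading ones of Nfia, Adat2, Pgap2 and Alpk3 are red mainly in the wild type WB columns.

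A step among wild type arrays is rare on the array. Of the 9722 probe sets above 20 on at least 4 of the 16 arrays, 0.833% had a gap of at least 1 log2 unit between neighbouring values of the 8 wild type arrays, and 6 of the 10 leading probe sets had one. That count describes how the genes were chosen and is no result about them. Over the 8 Nfkb1-/- arrays, 2 of the 10 leading probe sets (Pttg1 and Klk1b16) had a range of at least 1 log2 unit, beside 9.59% of the probe sets. Over the 8 Bcl3-/- arrays, which had no part in the choice, 2 of the 10 (Paip1 and Klk1b16) had such a range, beside 9.41%. Of all 22 probe sets, 5 had such a range over the Bcl3-/- arrays, the others being of Cuedc1 and Nfia, and 3 over the Nfkb1-/- arrays. Probe sets of 1 gene are not independent of each other. Ranges over the 4 wild type WB arrays reached 1 log2 unit for 7 of the 10 (2.2% of probe sets) and over the 4 wild type HU arrays for 2 of the 10 (3.11%). The shares for wild type and Nfkb1-/- arrays are of the 9722 probe sets. The leading probe sets of Adat2 and Pgap2 are not among the 9722, and both count in the 7.

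Set beside unloading, 7 of the 10 leading probe sets had wild type HU arrays that did not overlap the wild type WB arrays. Gdpd3, Pttg1 and Klk1b16 were higher in HU (5.86% of the 19294 probe sets tested) and Nfia, Adat2, Cuedc1 and Tial1 were lower (4.89%). In Nfkb1-/- muscle Tial1 was higher without overlap (7.71%) and Klk1b16 and Adat2 were lower (10.9%). Gdpd3, Adat2 and Paip1 were higher in Bcl3-/- HU muscle without overlap (11.4%), and none was lower (4.07%). Among WB mice, Nfkb1-/- arrays did not overlap wild type arrays for 7 of the 10 (6.64%), with Klk1b16 higher (3.33%) and Nfia, Adat2, Cuedc1, Paip1, Pgap2 and Alpk3 lower (3.31%). Among HU mice, Tial1 was higher in Nfkb1-/- (4.35%) and Gdpd3, Pttg1, Paip1, Klk1b16 and Pgap2 were lower (7.79%). Paip1, Klk1b16 and Pgap2 did not overlap in either condition, Klk1b16 in opposite directions. The share of all probe sets with no overlap in both conditions was not counted. These wild type counts describe contrasts that chose the genes.

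Over all 22 probe sets, 5 changed with unloading in Nfkb1-/- muscle at an adjusted p under 0.05, of 3 genes, where 11.4% of all probe sets tested did. Of these, 3 rose, all of Tial1 (4.79% of all), and 2 fell, of Klk1b16 and Pgap2 (6.59% of all). Those shares include many probe sets that passed the intensity filter only through Bcl3-/- arrays. Of the 9722 above 20 on at least 4 of the 16 wild type and Nfkb1-/- arrays, 935 rose and 1301 fell. That filter left 15 of the 22 probe sets, and the 5 calls stayed. In Bcl3-/- muscle 3 changed, all higher (2 of Paip1 and 1 of Nfia), where 10.4% of all did, 7.59% higher and 2.81% lower. Without Bcl3-/- HU replicate 1 that count was 0. The median size of the change was 0.27 log2 units for the 22 probe sets and 0.13 for all in Nfkb1-/- muscle, and 0.15 for the 22 and 0.14 for all in Bcl3-/- muscle. No probe set of the 10 genes differed between the knockouts in its response at an adjusted p under 0.05 by limma, where 1.73% of all did, 0.378% with the higher change in Nfkb1-/- and 1.35% with the lower, and 8 of the 22 had an unadjusted p under 0.05, beside 18.4% of all. The wide wild type differences with unloading in Gdpd3, Pttg1, Nfia, Adat2, Cuedc1 and Alpk3 stood beside leading probe sets not called in either knockout. The SE of those tests comes from the spread within all 6 groups, so the wide wild type spread that chose the genes enters it. A change not called is therefore no sign of an absent response. With only the groups compared, Gdpd3 passed in Bcl3-/- muscle and Adat2 in Nfkb1-/- muscle. Whether the wild type change differs from that of a knockout was not tested, because the wild type arrays chose the genes.

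**Figure D3:**
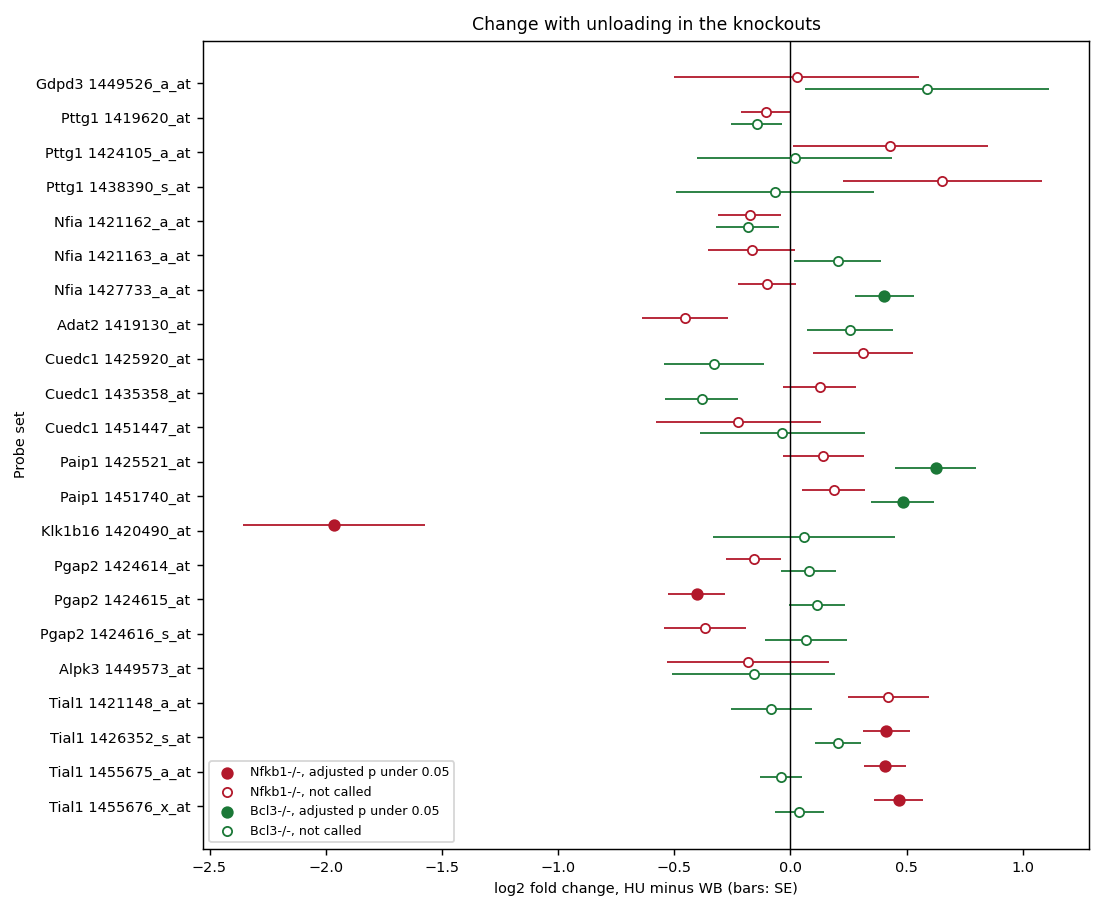
Log2 fold change with unloading (HU minus WB) of the 22 probe sets in Nfkb1-/- (red) and Bcl3-/- muscle (green), with bars of 1 SE from the fit over all arrays and filled points at an adjusted p under 0.05. Klk1b16 stands at -1.96 in Nfkb1-/- muscle, and the other filled points lie between -0.40 and 0.63.

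The gene whose pattern was most like that of a leading probe set lay on its chromosome for 5 of the 10, though not always close by. Likeness is Pearson's r of log2 intensities over the 16 arrays, given as a description, since these arrays share their groups and normalization. Gdpd3 was closest to Knop1 (r = 0.958), which also lies on chromosome 7 with 55 tested genes between, Pttg1 to Ndel1 (r = 0.98) on chromosome 11 with 174 between, and Alpk3 to Homer2 (r = 0.945) on chromosome 7 with 3 between. Klk1b16 was closest to 3110040N11Rik (r = 0.767) and Tial1 to Ndufa3 (r = 0.897), both on chromosome 7. These pairs had 161 and 739 tested genes between, of the 875 tested on that chromosome. Paip1 was closest to Polr1d (r = 0.942), Pgap2 to Snapc3 (r = 0.896), Cuedc1 to Rarb (r = 0.877), and Nfia and Adat2 to probe sets of Pgap2 (r = 0.906 and 0.894), all on other chromosomes. Of the 30 most like probe sets, 3 for each gene, 9 were on the same chromosome, as were 5 of the 10 first ones, where a mean of 7.1% of the tested genes lie on the chromosome of a given one of the 10. Trappc6a, counted in the 9 for Gdpd3, had 581 tested genes between, and Alpk3, itself a chosen gene, is counted for Pgap2. Linkage was not tested.

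The like genes repeated single mice. Knop1 read 22.04 to 28.9 on the Nfkb1-/- arrays. In wild type muscle it read 46.0, 51.5, 52.1 and 54.0 on the HU arrays, against 27.0, 26.8, 28.1 and 43.1 on the WB arrays, with WB replicate 4 high as for Gdpd3. Ndel1, a partner of the motor dynein, read 5.79 to 7.19 in Nfkb1-/- muscle and 24.95 to 35.8 in wild type HU muscle, against 5.54 in wild type WB replicate 2, the low Pttg1 mouse, and 16.7 to 22.2 in the other 3 WB mice. Homer2, a synaptic and muscle scaffold protein, read 52.5 to 79.7 on the wild type HU arrays, against 98.3, 167, 110 and 62.9 on the wild type WB arrays, where the highest and the lowest mouse were those of Alpk3. These genes were picked for their likeness, so the agreement is a description.

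**Figure D4:**
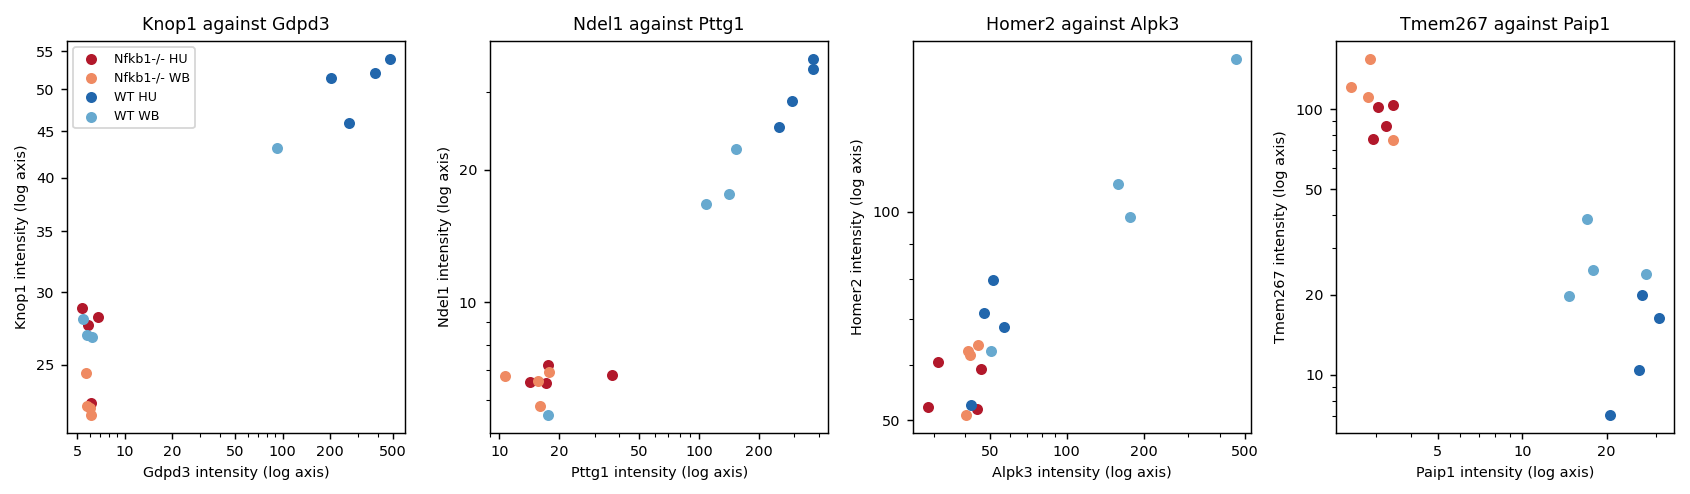
Intensity (log axes) on the 16 wild type and Nfkb1-/- arrays, 1 point a mouse, of Knop1 against Gdpd3, Ndel1 against Pttg1, Homer2 against Alpk3 (the most like genes) and Tmem267, a neighbour, against Paip1. In the plots of Gdpd3 and Pttg1 1 wild type WB mouse stands apart from the other 3, in that of Alpk3 the highest and the lowest WB mouse are the same for both genes, and Tmem267 is high where Paip1 is low.

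Of the 10 genes, 5 (Gdpd3, Klk1b16, Pgap2, Alpk3 and Tial1) lie on chromosome 7, which holds 7.9% of the 11082 tested genes with a known place, 2 (Pttg1 and Cuedc1) lie on chromosome 11 with 8.67%, and Nfia, Adat2 and Paip1 lie on chromosomes 4, 10 and 13. The 3 nearest tested genes on each side of the 10 are 60 genes, which the choice did not use. Of them 2, or 3.33%, differed between Nfkb1-/- and wild type WB muscle at an adjusted p under 0.05, where 0.902% of all probe sets did, 0.57% higher and 0.332% lower, and both lie beside Paip1. Tmem267, a membrane protein, read 121, 111, 155 and 76.3 on the Nfkb1-/- WB arrays and 23.9, 38.7, 19.7 and 24.8 on the wild type WB arrays, 2.11 log2 units higher in Nfkb1-/- (SE 0.25, adjusted p = 1.5e-05). 4833420G17Rik read 73.1, 71.0, 85.5 and 80.3 on the Nfkb1-/- WB arrays and 42.0, 45.4, 50.1 and 56.5 on the wild type WB arrays, 0.68 log2 units higher (SE 0.11, adjusted p = 0.00079). Both were higher in Nfkb1-/- muscle, the opposite of Paip1. Nnt, on the other side of Paip1 and known to carry a deletion in C57BL/6J mice, differed by 0.06 (adjusted p = 0.98) between Nfkb1-/- and wild type WB muscle. With unloading Nnt rose in Nfkb1-/- muscle (0.41, adjusted p = 0.044), changed by -0.33 in Bcl3-/- muscle (adjusted p = 0.12), and differed between the knockouts by 0.74 (adjusted p = 0.043).

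A step among the wild type arrays was seen at 1 of the 60 neighbours, Emb, a cell surface protein, at 36.8 in wild type HU replicate 1 and 10.8 to 14.7 in the other 3 HU mice. The 3 nearest genes on each side of Gdpd3, Pttg1 and Alpk3 had gaps of at most 0.575 log2 units in wild type arrays. Genes that flank Nfkb1, of which 5 of 10 were measured, included none that differed between Nfkb1-/- and wild type WB muscle by limma, also at an unadjusted p under 0.05. Of 6 measured genes known to vary among inbred strains (Nnt, H2-Ea, Kcnj9, Alad, Glo1 and Ifi202b), none passed the test in that contrast by limma or by the methods' t-test after adjustment, while Alad (-0.51), Glo1 (-0.52) and Ifi202b (-0.52) had an unadjusted p under 0.05, beside 7.85% of all probe sets. The median difference of the 6 was -0.29 log2 units, against -0.01 over all probe sets tested. Each gene was judged on its brightest tested probe set. Another Glo1 probe set was among the 3 most like Cuedc1 (r = 0.869), and was picked for that likeness. It read 115, 135, 263 and 237 on the wild type HU arrays, the same split of mice. In WB muscle it read 147 to 315 in wild type and 114 to 130 in Nfkb1-/- mice. Whether this follows an allele was not tested.

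Genes that work with the 10 were read from 9 lists of their pathways and families. Of the 69 measured, 11 changed with unloading in Nfkb1-/- muscle (15.9%, beside 11.4% of all probe sets) and 10 in Bcl3-/- muscle (14.5%, beside 10.4%) by limma, and 0 in either by the methods' t-test after Benjamini-Hochberg adjustment. The 11.4% includes many probe sets that passed the intensity filter only through Bcl3-/- arrays, so the 15.9% beside it is no result about these genes. For Pttg1, 17 of 21 genes of mitosis and cohesion were measured, and the mitotic kinase Aurka fell with unloading in Nfkb1-/- muscle by 1.40 log2 units (SE 0.31, adjusted p = 0.0044). In Bcl3-/- muscle the cohesin subunits Stag1 and Stag2 rose (0.49 and 0.28, adjusted p = 0.012 and 0.021) and Cdk1 and Fzr1 fell by 0.55 and 0.33 (adjusted p = 0.013 and 0.011). Of 18 GPI anchor genes measured, Piga, of the first step, rose in Nfkb1-/- muscle (0.50, adjusted p = 0.031) and Pigo fell by 0.46 (adjusted p = 0.019), and none passed the test in Bcl3-/- muscle by limma (2 at an unadjusted p under 0.05). The glycerophosphodiesterase Gpcpd1 rose in both knockouts (0.61, adjusted p = 0.0028 in Nfkb1-/-, and 0.64, adjusted p = 0.003 in Bcl3-/-), and Gdpd1, a relative of Gdpd3, rose in Bcl3-/- muscle (0.64, adjusted p = 0.0061), 2 of the 5 measured.

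Of the 10 poly(A), cap-binding and stress granule genes measured, Pabpn1 rose (0.47, adjusted p = 0.018) and Pabpc4 and Eif4e fell by 0.45 and 0.30 (adjusted p = 0.002 and 0.029) in Nfkb1-/- muscle, and Tia1, the closest relative of Tial1, rose in Bcl3-/- muscle (0.31, adjusted p = 0.039). Among the 4 alpha kinases measured, Eef2k rose in both knockouts (0.48, adjusted p = 0.0047 in Nfkb1-/-, and 0.39, adjusted p = 0.022 in Bcl3-/-), and Trpm7 rose in Nfkb1-/- muscle (0.72, adjusted p = 0.0027). Of the other 3 nuclear factor I genes, Nfib fell by 0.28 in Nfkb1-/- muscle (adjusted p = 0.043) and Nfix rose in Bcl3-/- muscle (0.39, adjusted p = 0.008). Tollip was the 1 of 3 CUE domain genes that changed, higher in Bcl3-/- muscle (0.37, adjusted p = 0.016), and none of the 3 other adenosine deaminases passed the test in either knockout by limma (1 at an unadjusted p under 0.05 in Nfkb1-/- muscle and 0 in Bcl3-/- muscle).

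Markers of other cell types were compared beside these values. Keratinocyte markers summed to 23.9 to 29.4 on the 16 arrays with 0 of 5 above 20 on all of them, and adipocyte markers (3 of 5 measured) summed to 968 to 1270 in Nfkb1-/- HU and 752 to 1040 in Nfkb1-/- WB muscle, against 819 to 956 in wild type HU and 772 to 943 in wild type WB muscle. Macrophage markers summed to 354 to 640 in Nfkb1-/- HU and 351 to 475 in Nfkb1-/- WB, and to 321 to 443 in wild type HU and 307 to 368 in wild type WB muscle. The tendon markers (Tnmd, Scx and Fmod) summed to 632 to 928 in Nfkb1-/- HU and 1110 to 1180 in Nfkb1-/- WB muscle, and Tnmd fell there by 1.27 log2 units (SE 0.18, adjusted p = 0.00012). Tnmd also fell in Bcl3-/- muscle by 0.86 (adjusted p = 0.0037), and the adipocyte marker Adipoq rose in Nfkb1-/- muscle (0.75, adjusted p = 0.014). In wild type muscle they summed to 760 to 1100 in HU and 1160 to 1380 in WB. The 1 erythroid marker measured was at 43.4 to 284 in Nfkb1-/- HU and 38.9 to 78.3 in Nfkb1-/- WB, and at 25.6 to 31.9 in wild type HU and 23.6 to 40.2 in wild type WB muscle. On the Bcl3-/- arrays, with their own scale, tendon markers summed to 5390 to 7770 in HU and 6980 to 8040 in WB muscle, adipocyte markers to 4940 to 5900 in HU and 4710 to 5490 in WB muscle, and macrophage markers to 2050 to 2290 in HU and 2100 to 2600 in WB muscle. Keratinocyte markers summed to 254 to 307 in Bcl3-/- HU and 278 to 320 in Bcl3-/- WB muscle, and the erythroid marker was at 187 to 481 in HU and 254 to 343 in WB muscle. The part of these cell types in the differences of the 10 genes was not tested.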

How the data were processed

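The authors imported the scanner files into GenePattern, computed 1 value per probe set with RMA, normalized by quantiles, and deposited the linear intensities of the 24 arrays in 1 table. Every value column was used. The sources used here do not say whether the 2 sets of arrays were normalized together. Quantile normalization gives the arrays it covers a common distribution, and the medians of the 2 sets, 11.6 to 11.9 and 81.1 to 86.8, do not share one.

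Of 22626 probe sets without controls, 20380 are listed with 1 gene, 691 with several and 1555 with none in the platform annotation. The 19294 above an intensity of 20 on at least 4 of 24 arrays were fitted with limma 3.58.1 in R 4.3.3, with log2 intensities, 1 mean per group, and Benjamini-Hochberg adjustment over all of them (18 residual and 5.89 prior degrees of freedom). The fit was tested on simulated data. The number of arrays limits the precision. The 10 genes, the gene and marker lists and the tests were chosen with earlier results of these data known, and the p-values of the Nfkb1-/- comparison come from arrays that the choice saw.

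All probe sets listed with 1 of the 10 genes are named. For a gene of a list, the tested probe set with the highest mean log2 intensity was used, likewise for neighbours, the nearest 3 tested genes on each side in RefSeq gene order. For each leading probe set, the 3 probe sets of other genes with the highest correlation over 16 arrays are the like ones. Alternatives were other filters, other fits and scales, the methods' t-test, a replicate block and each array left out in turn. The labels give a replicate number, and the methods of the study give 4 mice per group, so the spread is taken as between mice. No pair of arrays was identical.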

Additional observations from a re-analysis of the deposited data

Results flagged for a closer look

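A single array far from the other 3 of its group was found in 15 of the 132 sets of 4 arrays of these probe sets, where chance gives about 1 in 20. Of the 15, 6 are in wild type groups, whose spread chose the genes, so the count is a description and supports nothing. In wild type WB muscle, Gdpd3 was high in replicate 4 at 92.4, Pttg1 was low in replicate 2 at 17.6 (1424105_a_at) and at 95.3 (1438390_s_at), Klk1b16 was low in replicate 2 at 2.91, and Pgap2 (1424616_s_at) was low in replicate 4 at 12.9. In wild type HU muscle, Cuedc1 1425920_at was low in replicate 1 at 6.31. In Nfkb1-/- muscle, Pgap2 was high in HU replicate 4 at 20.4 (1424614_at) and in WB replicate 2 at 31.7 (1424615_at), and Nfia 1427733_a_at was low in WB replicate 1 at 3.04. On the Bcl3-/- arrays, which are on another scale, HU replicate 4 was low for Klk1b16 at 180.5 and high for Pgap2 at 239.6 (1424615_at) and 95.5 (1424616_s_at). HU replicate 3 was high for Tial1 1421148_a_at at 187.6, HU replicate 1 was low for Tial1 1455675_a_at at 288.6, and WB replicate 2 was high for Nfia 1421162_a_at at 68.3.

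In 5 cases every HU array moved one way from the WB arrays in one genotype and every HU array the other way in another genotype. The share of all probe sets with such a reversal was not counted, so the 5 cases are a description. Separation of HU from WB arrays in either direction was seen at 10.7% to 18.6% of the 19294 probe sets tested, depending on genotype. Between Nfkb1-/- and wild type muscle, the log2 change differed by -3.28 for Klk1b16 (-1.96 in Nfkb1-/- and 1.32 in wild type) and by 1.52 for Tial1 1426352_s_at (0.41 in Nfkb1-/- and -1.10 in wild type). Between Bcl3-/- and wild type muscle, it differed by 1.74 for Adat2 (0.25 in Bcl3-/- and -1.48 in wild type) and by 0.79 for Nfia 1427733_a_at (0.40 in Bcl3-/- and -0.39 in wild type). These 4 differences were not tested, because the wild type arrays chose the genes. Between the knockouts, the change of Adat2 differed by -0.71 (-0.45 in Nfkb1-/- and 0.25 in Bcl3-/-), which did not pass the test (adjusted p = 0.15, limma).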

How the results depend on the processing

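No change of a probe set of the 10 genes that passed the test turned its direction under the alternatives run. In Nfkb1-/- muscle, 5 of the 22 probe sets were called, against 2 with the filter of the methods, 8 with array weights, 2 with the methods' t-test with q-values and 0 with its Benjamini-Hochberg adjustment. Over all probe sets tested, the 925 higher there became 527, 1963, 256 and 69 under these 4 settings and 604 with 16 added to the intensity, and the 1271 lower became 572 with the filter and 599 and 238 with the t-test. In Bcl3-/- muscle, 3 of the 22 were called and 0 with the t-test under either adjustment. The 1465 higher over all became 799 with only the groups compared, 2879 with 16 added, and 231 and 68 with the t-test, and the 542 lower became 242, 1653, 56 and 16, with 999 under array weights and 922 under quantile normalization repeated over all 24 arrays.

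For the difference between the knockouts, 0 of the 22 became 1 with the filter of the methods (Paip1), 2 with the intensity filter applied to each set of arrays (Klk1b16 and Tial1), 3 with only the groups compared (Gdpd3, Adat2 and Klk1b16), 3 with array weights (Klk1b16 and 2 of Tial1), and 1 with quantile normalization repeated or with 16 added (Tial1). The 73 higher over all became 181, 46, 179, 118 and 171 under the filter of the methods, only the groups compared, array weights, quantile normalization and 16 added, and the 261 lower became 420, 487 and 691 under the filter of the methods, the filter in each set and 16 added. Nfkb1-/- against wild type WB muscle gave 110 higher and 64 lower, 293 and 262 with array weights, 51 and 32 with 16 added, 6 and 3 with q-values of the t-test, and 5 and 2 with its adjustment.

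With 1 array left out, the 22 gave 4 to 7 calls in Nfkb1-/- muscle, 0 to 4 in Bcl3-/- muscle (0 without Bcl3-/- HU replicate 1) and 0 to 2 for the difference. All probe sets gave 521 to 1100 higher and 810 to 1424 lower in Nfkb1-/- muscle, 774 to 1750 higher and 249 to 806 lower in Bcl3-/- muscle, 27 to 179 higher and 95 to 659 lower for the difference, and 65 to 120 higher and 36 to 73 lower in Nfkb1-/- against wild type WB muscle. The lowest counts fell without Bcl3-/- HU replicate 1 in Bcl3-/- muscle and without Nfkb1-/- HU replicate 2 (higher) or WB replicate 4 (lower) in Nfkb1-/- muscle.

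Same-numbered HU and WB arrays correlated between -0.173 and 0.222 in their deviations from the group means, so the numbers were not taken as pairs. A replicate block left 885 higher and 1178 lower in Nfkb1-/- muscle and 5, 3 and 0 calls among the 22. Adding 16 shrank the wild type difference of Gdpd3 between HU and WB to 3.35, since it damps values below about 16. Save for Alpk3, each leading probe set read below 20 on some of the 16 arrays, which limits the fold sizes of these genes.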
